A study of Mus musculus with 10 samples.

Results

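Irf7, Rnf213, Lgals3bp, Xaf1 and Ifi27l2b are genes that interferons induce, and their liver transcripts were followed across 5 groups of mice. Every probe set that the platform's annotation names for them was taken, which gave 6 of the 11868 probe sets tested, and the 5 genes are among 5928 measured. Ifi27l2b has 2 probe sets and the others have 1 each. The members were chosen by measured values of these arrays, namely the difference between the mice injected with poly(I:C) and the uninjected mice and that between the transgenic mice and their wild type, so those values are given below as a description, without a test.

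Liver RNA was hybridised to Affymetrix U74Cv2 mouse arrays, and all mice were male. Scap-/- mice carry Scap-/- together with MX1-Cre and lack SCAP, the escort protein of the sterol regulatory element-binding proteins (SREBPs), in the liver. They and the corresponding wild-type mice, called Scap wild type here, were 10 to 12 weeks old, ate Teklad chow, and both groups had received 4 intraperitoneal injections of poly(I:C), the last of them 14 days before the livers were taken. TgSREBP-1a and TgSREBP-2 mice overexpress the nuclear, active form of human SREBP-1a or SREBP-2, and their wild-type littermates are called SREBP wild type here. These 3 groups were 12 to 16 weeks old, had eaten, for 2 weeks, a diet high in protein and low in carbohydrate, and have no injection in their labels. Each group was 1 pool of equal RNA aliquots from 5 mice, hybridised to 2 arrays, so the 10 arrays represent 5 pools, and every p-value rests on how duplicate hybridisations varied, not on how mice did. The labels name no promoter for the transgenes and do not say whether the Scap wild type mice carried MX1-Cre. Injections, diet, age, strain background and study change together between the Scap groups and the SREBP groups and cannot be told apart.

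Poly(I:C) is a synthetic double-stranded RNA that cells read as a sign of viral infection. It leads to the release of type I interferons, whose receptor signals to the promoters of interferon-stimulated genes. The Mx1 promoter, which drives Cre in the Scap-/- mice, is itself such a promoter, and poly(I:C) is given to switch it on. IRF7 is the transcription factor that amplifies the response by driving further interferon genes. RNF213 is a very large ubiquitin ligase with antimicrobial activity, LGALS3BP is a secreted glycoprotein that binds galectins, XAF1 is a pro-apoptotic protein that binds the inhibitor of apoptosis XIAP, and IFI27L2B belongs to a family of small membrane proteins induced by interferon.

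The promoters of these genes are shown because interferon acts on them through short motifs. RefSeq sequences (GRCm38.p6) from 250 bases before to 50 bases after the start were at hand for 4 of the 5 genes. They were searched on both strands for the core of the interferon-stimulated response element (GAAA, any 2 bases, GAAA), the core bound by interferon regulatory factors (AANNGAAA, which is contained in the first), the gamma-activated sequence (TTCNNNGAA) and the sterol regulatory element (TCACNCCAC). Capitals mark the matches, all of them to AANNGAAA or its reverse complement TTTCNNTT. The Irf7 window lies at chr7:141266375-141266674, minus strand, that of Rnf213 at chr11:119389849-119390148, plus strand, that of Lgals3bp at chr11:118401910-118402209, minus strand and that of Xaf1 at chr11:72301379-72301678, plus strand.
Irf7: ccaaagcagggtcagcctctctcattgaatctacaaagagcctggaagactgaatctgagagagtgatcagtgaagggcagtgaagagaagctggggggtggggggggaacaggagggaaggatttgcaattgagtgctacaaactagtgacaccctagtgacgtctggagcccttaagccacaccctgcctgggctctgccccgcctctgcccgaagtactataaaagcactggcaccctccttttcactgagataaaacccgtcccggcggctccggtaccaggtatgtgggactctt
Rnf213: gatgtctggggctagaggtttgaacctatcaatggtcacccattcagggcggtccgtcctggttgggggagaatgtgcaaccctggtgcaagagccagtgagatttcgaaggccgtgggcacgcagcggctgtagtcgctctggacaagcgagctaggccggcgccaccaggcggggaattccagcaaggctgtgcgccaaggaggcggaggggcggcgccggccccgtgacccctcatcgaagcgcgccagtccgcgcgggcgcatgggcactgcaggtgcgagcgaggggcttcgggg
Lgals3bp: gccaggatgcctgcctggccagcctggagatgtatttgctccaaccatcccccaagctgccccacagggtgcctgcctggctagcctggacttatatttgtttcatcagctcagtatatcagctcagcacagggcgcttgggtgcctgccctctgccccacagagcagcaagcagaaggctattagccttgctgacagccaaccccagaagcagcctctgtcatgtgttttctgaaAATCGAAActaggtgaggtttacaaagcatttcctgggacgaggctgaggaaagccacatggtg
Xaf1: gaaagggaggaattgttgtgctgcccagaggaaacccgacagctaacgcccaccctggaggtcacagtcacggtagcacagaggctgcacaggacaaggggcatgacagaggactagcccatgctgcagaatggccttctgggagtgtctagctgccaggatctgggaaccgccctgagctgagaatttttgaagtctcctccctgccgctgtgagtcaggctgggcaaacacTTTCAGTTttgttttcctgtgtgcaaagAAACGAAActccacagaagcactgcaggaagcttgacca

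Lgals3bp held 1 match, AATCGAAA, which begins 14 bases before the start. Xaf1 held 2 matches, TTTCAGTT beginning 17 bases before the start and AAACGAAA beginning 12 bases after it. The windows of Irf7 and Rnf213 held none. Matches to AANNGAAA occur in 23.9% of the 32851 promoter windows of the table, so such a match is common. The longer response element core, found in 3.44% of all windows, was in none of the 4, nor was TTCNNNGAA (8.30% of all windows) or TCACNCCAC (1.24%).

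Values are log2 expression per probe set as deposited, and over all probe sets and arrays their median was 4.74. The medians of the arrays lay between 4.69 and 4.77, and duplicate arrays correlated at 0.992 to 0.995 over the probe sets, a description since these are not independent. A probe set was called where limma gave an adjusted p under 0.05 (Benjamini-Hochberg over all 11868) and the difference was at least 1.5-fold. The deposited values hold no detection calls, and the number of arrays limits the precision. Of the 30 fixed hepatocyte markers 6 were measured, and among them Fga (8.88), Apoh (8.11) and Tdo2 (7.73) had high mean signals, while Hp (5.43), Serpina1a (3.43) and Ahsg (2.86) had low ones. Scap, Srebf1 and Srebf2 were not analysed here, so the deletion and the transgenes were not checked.

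The transcription factor gene Irf7 had its highest signal in the pools injected with poly(I:C). It read 9.35 and 9.17 on the Scap wild type arrays and 9.30 and 8.70 on the Scap-/- arrays. On the uninjected arrays it read 7.50 and 7.34 in SREBP wild type, 7.89 and 7.77 in TgSREBP-1a, and 8.52 and 8.59 in TgSREBP-2. All 4 injected arrays thus lay above all 6 uninjected ones, and from the lowest pool upwards the order was SREBP wild type, TgSREBP-1a, TgSREBP-2, Scap-/- and Scap wild type. Only the last neighbours in that order, the Scap pools, had overlapping arrays. The mean of Scap wild type, 9.26 ± 0.12 (SD, n = 2 arrays), was 3.59-fold above the 7.42 ± 0.12 of SREBP wild type (log2 difference 1.84, SE 0.164). The first array was the brighter one in 4 of the 5 groups, and the pooled SD between duplicates, 0.21, was larger than that of 91.4% of probe sets. The Irf7 probe set, 167512_f_at, is of a class (_f_at) whose probes may match more than 1 transcript.

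Rnf213, the ubiquitin ligase gene, followed the same order of pools as Irf7. It read 8.12 and 7.34 in Scap wild type, 7.55 and 6.90 in Scap-/-, 7.04 and 6.77 in TgSREBP-2, 6.68 and 6.40 in TgSREBP-1a, and 6.25 and 5.83 in SREBP wild type. The Scap wild type arrays lay above all others but 1, and those of Scap-/- overlapped with those of TgSREBP-2 and of Scap wild type. The mean was 7.73 ± 0.55 in Scap wild type and 6.04 ± 0.30 in SREBP wild type, a 3.23-fold difference (log2 difference 1.69, SE 0.261). The first array of each pool was brighter than the second in all 5 groups, by 0.27 to 0.78, which was the case for 6.15% of all probe sets. The pooled SD between duplicates, 0.37, was larger than that of 99.2% of probe sets, whose median was 0.11. The 18S ribosomal RNA control differed with the array number too, lying between 7.19 and 8.03 on the first arrays and between 8.21 and 9.88 on the second. Its step was smallest in Scap wild type (8.03 and 8.21), the pool with the largest Rnf213 gap (0.78). The part of this control in the values of Rnf213, Lgals3bp and Irf7 was not tested.

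Lgals3bp, the secreted galectin-binding glycoprotein, had 1 pool below the other 4. It read 8.58 and 8.03 in SREBP wild type, against 9.12 and 8.97 in TgSREBP-2, 9.25 and 9.06 in TgSREBP-1a, 9.38 and 9.23 in Scap wild type, and 9.50 and 9.16 in Scap-/-. The SREBP wild type arrays lay below the other 8, and each neighbouring pair among the other 4 pools overlapped. Scap wild type (9.31 ± 0.11) was 2.01-fold above SREBP wild type (8.30 ± 0.39), with a log2 difference of 1.01 (SE 0.171). As for Rnf213, the first array was brighter than the second in all 5 groups, by 0.15 to 0.55, and the pooled SD between duplicates, 0.22, was larger than that of 93.2% of probe sets. The difference from all uninjected pools was smaller, since the transgenic pools were nearly as high. The mean of the 2 injected pools exceeded that of the 3 uninjected pools by 0.49 for Lgals3bp, by 1.20 for Irf7 and by 0.98 for Rnf213. Lgals3bp is measured by 167234_s_at, of another class (_s_at) whose probes may match more than 1 transcript.

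Xaf1, the XIAP-binding gene, was dimmer and separated the injected from the uninjected pools by a smaller margin. It read 6.40 and 6.02 in Scap-/- and 5.72 and 5.73 in Scap wild type. On the uninjected arrays it read 5.33 and 5.43 in SREBP wild type, 5.38 and 5.34 in TgSREBP-1a, and 5.29 and 5.60 in TgSREBP-2. The 4 injected arrays lay above the 6 uninjected ones, the uninjected pools overlapped with each other, and Scap-/- lay above Scap wild type. Scap wild type exceeded SREBP wild type by 0.34 (SE 0.136), and the mean of the injected pools exceeded that of the uninjected pools by 0.57.

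Ifi27l2b gave different patterns at its 2 probe sets. The brighter one, 168934_at, stayed between 6.48 and 6.73 on all 10 arrays. SREBP wild type (6.71 ± 0.03) and TgSREBP-2 (6.71 ± 0.02) were highest. Scap wild type (6.50 ± 0.01) and TgSREBP-1a (6.51 ± 0.03), with overlapping arrays, were lowest. The dimmer one, 165944_at, read 5.98 and 5.78 in Scap-/-, 5.63 and 5.68 in TgSREBP-1a, 5.75 and 5.55 in TgSREBP-2, 5.12 and 4.98 in SREBP wild type, and 4.82 and 5.02 in Scap wild type. At that probe set the wild-type pools overlapped and lay below the other 3 pools, so that it was not higher in the injected wild type (log2 difference -0.13, SE 0.117) than in the uninjected one. Across the 10 arrays the correlation between the gene's probe sets was 0.02, a description over 5 pools on 2 arrays each.

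**Figure D1:**
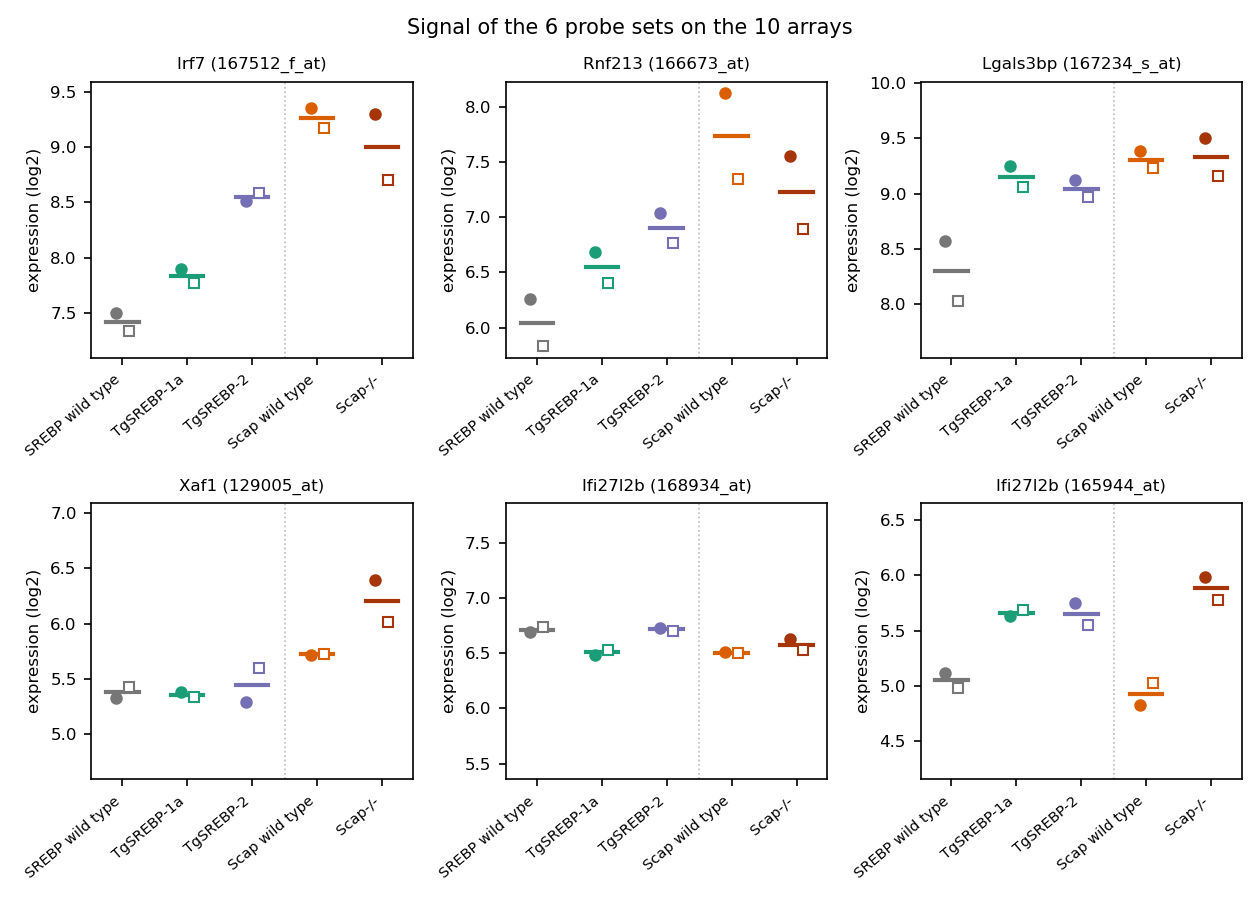
Log2 expression (vertical axis, 2.5 log2 units in each panel) of the 6 probe sets in the 5 groups. Circles are replicate 1, open squares replicate 2 and bars the mean of the 2 arrays; right of the dotted line are the pools injected with poly(I:C), which lie above the others for Irf7 and Xaf1, while Lgals3bp is low in SREBP wild type alone.

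In the comparison of Scap wild type with SREBP wild type, 2 of the 6 probe sets were called, those of Irf7 and Rnf213, against 0.0927% of all probe sets. All arrays of Scap wild type were above those of SREBP wild type at 4 of the 6, against 14% of all probe sets, and below them at 168934_at of Ifi27l2b. By size of difference Irf7 ranked 4 and Rnf213 ranked 5 of 11868, while Lgals3bp ranked 17 and Xaf1 276. The median of the 5 genes, each at its brightest probe set, was 1.01, beside a median of -0.02 over all probe sets. Since this comparison served to choose the genes, nothing is read from these counts. The call of Rnf213 was lost without Scap wild type replicate 1 (1.30), SREBP wild type replicate 1 (1.90) or replicate 2 (1.48), without any 1 of the 4 transgenic arrays (1.69) and with a variance trend and robust variance (1.69), and Lgals3bp gained a call without SREBP wild type replicate 1 (1.28).

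Over all injected and all uninjected arrays, 2 of the 6 probe sets, those of Irf7 and Xaf1, had every injected array above every uninjected one, against 1.32% of all probe sets. Rnf213 missed this by its second Scap-/- array (6.90), which lay below the first TgSREBP-2 array (7.04), and Lgals3bp by the second arrays of Scap-/- (9.16) and Scap wild type (9.23), both below the first TgSREBP-1a array (9.25).

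In the transgenic livers, Irf7, Rnf213 and Lgals3bp were above SREBP wild type in both lines, and the arrays did not overlap at any of these 6 comparisons. Irf7 differed by 1.13 in TgSREBP-2 (2.19-fold, SE 0.164) and by 0.41 in TgSREBP-1a (1.33-fold). The TgSREBP-2 arrays for Irf7 also lay above those of TgSREBP-1a, with a log2 difference of 0.72. Rnf213 differed by 0.86 in TgSREBP-2 and 0.50 in TgSREBP-1a (SE 0.261 for both), and Lgals3bp by 0.74 and 0.85 (SE 0.171 for both). Xaf1 stayed within 0.06 of SREBP wild type in TgSREBP-2 and differed by -0.02 in TgSREBP-1a. For Ifi27l2b the dimmer probe set was higher in both, by 0.61 in TgSREBP-1a and 0.60 in TgSREBP-2, while the brighter one differed by -0.20 and 0.00.

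Both transgenic comparisons, and that with Scap wild type, share the SREBP wild type arrays. In TgSREBP-1a, 2 of the 6 probe sets were called, those of Lgals3bp and of Ifi27l2b at 165944_at, against 1.04% of all probe sets. In TgSREBP-2, 1 of the 6 was called, that of Irf7, against 0.118%. All transgenic arrays were above those of SREBP wild type at 4 of the 6 probe sets in each line, against 15.2% of all probe sets in TgSREBP-1a and 16.6% in TgSREBP-2. The median of the 5 genes was 0.41 in TgSREBP-1a and 0.74 in TgSREBP-2, beside -0.03 and -0.01 over all probe sets. These comparisons served to choose the genes as well, and nothing is read from the counts.

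The calls in the transgenic lines depended on single arrays. Irf7 in TgSREBP-2 lost its call without any 1 of the 6 arrays of the SREBP groups, with differences of 1.05 to 1.21. Lgals3bp in TgSREBP-1a lost it without SREBP wild type replicate 2 (0.58), TgSREBP-1a replicate 1 (0.75) or replicate 2 (0.95), or either array of TgSREBP-2 or Scap wild type (0.85). Ifi27l2b at 165944_at in TgSREBP-1a lost it without any 1 of the 4 arrays compared (0.54 to 0.67). Without SREBP wild type replicate 2 the Lgals3bp difference in TgSREBP-2 fell from 0.74 to 0.47 and that of Rnf213 in TgSREBP-1a from 0.50 to 0.29 on the log2 scale.

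**Figure D2:**
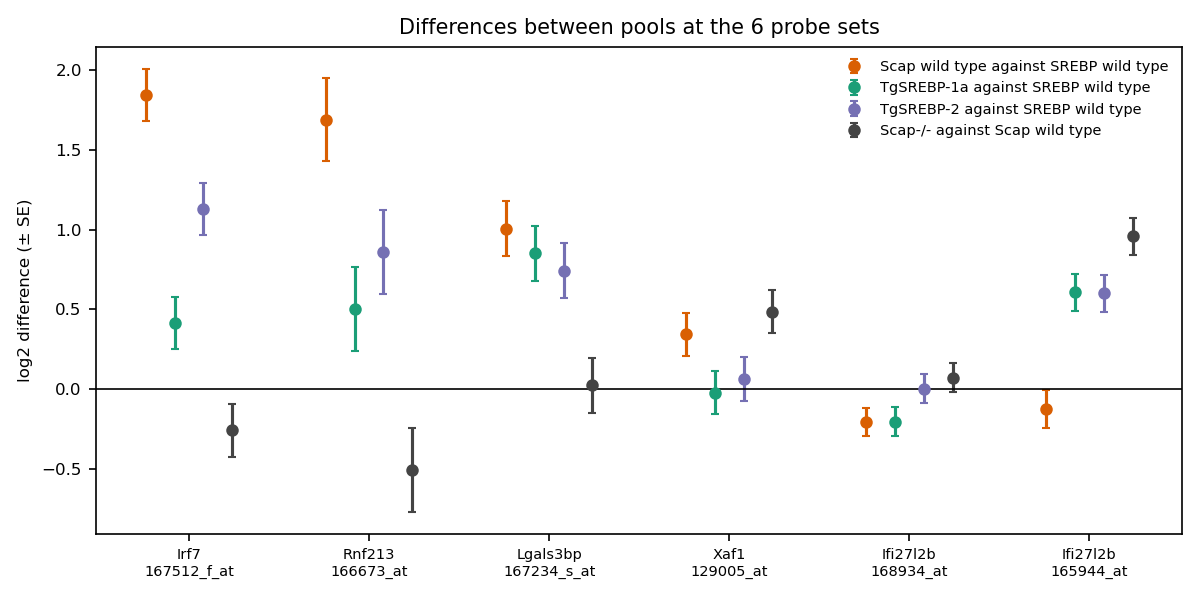
Log2 difference ± SE (limma, vertical axis) of the 6 probe sets in 4 comparisons of pools, each pool on 2 arrays. Irf7 and Rnf213 are highest in Scap wild type against SREBP wild type (1.84 and 1.69), and 165944_at of Ifi27l2b in Scap-/- against Scap wild type (0.96).

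Loss of SCAP was compared between pools that had both received poly(I:C). The choice of genes did not name this comparison, but values of it were known then, so it is a description too. Of the 6 probe sets, 5 were not called, each with a limma adjusted p of 0.999. Irf7 differed by -0.26 (SE 0.164) and Rnf213 by -0.51 (SE 0.261), with overlapping arrays, and Lgals3bp by 0.02 (SE 0.171). Xaf1 was 0.48 higher in Scap-/- (SE 0.136) with its arrays above those of Scap wild type, as at 3 of the 6 probe sets and 14.8% of all, and the brighter Ifi27l2b probe set differed by 0.07 (SE 0.0894). The dimmer Ifi27l2b probe set was 1.94-fold higher in Scap-/- (5.88 ± 0.14 against 4.92 ± 0.14, log2 difference 0.96, SE 0.117, limma adjusted p = 0.00783); this call was known from earlier work on these arrays when the genes were picked.

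Called probe sets thus numbered 1 of 6 in the SCAP comparison, against 0.0843% of all. That call was known when the genes were picked, so nothing is read from the count. The median of the 5 genes was 0.02, beside 0.00 over all probe sets. The call of 165944_at was lost without Scap-/- replicate 1 (0.85, adjusted p = 0.0815), without Scap wild type replicate 1 (0.86, adjusted p = 0.142) and when the 4 Scap arrays were fitted by themselves (0.96, adjusted p = 0.157). Over the alternatives its adjusted p ranged from 0.00283 to 0.157. For Irf7 the difference ranged from -0.56 to 0.04, for Rnf213 from -0.90 to -0.12 and for Xaf1 from 0.30 to 0.67.

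The other measured interferon-stimulated genes differed less between the wild-type pools than Irf7 and Rnf213. Irf7 and Rnf213 were chosen with this difference known, so nothing is read from the contrast. A list of 133 further genes of this class had 24 with a tested probe set. Among them were Oas1b and Oas3, of the oligoadenylate synthetase family, the viral RNA sensor Ifih1, the guanylate-binding protein gene Gbp2 and the chemokine gene Cxcl11. None of the 24 was called by limma in Scap wild type against SREBP wild type, against 0.0927% of all probe sets. An unadjusted p under 0.05 was found for 2 of them, against 7.26% of all probe sets. Their differences ran from -0.14 to 0.44, with a median of -0.01, beside -0.02 over all probe sets. The arrays of Scap wild type lay above those of SREBP wild type at 3 of the 24, against 14% of all probe sets.

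The largest differences in that comparison were those of Cxcl11 (0.44, SE 0.152, limma adjusted p = 0.585), Slfn8, of the Schlafen family (0.29, adjusted p = 0.65), and Oas1b (-0.14, adjusted p = 0.818). Cxcl11 was dim, from 3.43 to 4.50 on the 10 arrays. The 5 with the brightest mean signal, picked for it after the values were seen, were Parp10 (8.70), the antiviral factor gene Trim14 (8.17), Oas3 (7.60), Phf11d (7.43) and Oas1b (7.34). They differed by -0.01, 0.12, -0.03, 0.10 and -0.14 between the wild-type pools.

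None of the 24 was called in the transgenic or SCAP comparisons either, by limma. Of all probe sets, 1.04% were called in TgSREBP-1a, 0.118% in TgSREBP-2 and 0.0843% in Scap-/-, so few calls are to be had among 24 genes. In TgSREBP-1a, 3 had an unadjusted p under 0.05 (9.4% of all probe sets did), the largest being Cxcl11 (0.68, SE 0.152, limma adjusted p = 0.0677), Slfn8 (0.40, adjusted p = 0.211) and Nt5c3 (0.29, adjusted p = 0.281). Cxcl11 passed without TgSREBP-1a replicate 2 (0.93, adjusted p = 0.021) and with plain _at probe sets alone (0.68, adjusted p = 0.0389). In TgSREBP-2, 2 had an unadjusted p under 0.05 (6.34% of all), and the largest were Slfn8 (0.50, SE 0.118, adjusted p = 0.257), Pnpt1 (-0.30) and Slfn9 (0.22). In Scap-/- against Scap wild type, 2 had an unadjusted p under 0.05 (3.8% of all), and the largest were Slfn8 (-0.29), Nt5c3 (0.26) and Oas1b (0.18), each with an adjusted p of 0.999. The medians of the 24 were 0.00 in TgSREBP-1a, -0.02 in TgSREBP-2 and 0.00 in Scap-/-.

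Slfn8, a gene of the Schlafen family, had values of 4.67 and 4.65 in SREBP wild type, 4.92 and 5.21 in TgSREBP-1a, 5.28 and 5.05 in TgSREBP-2, 5.00 and 4.91 in Scap wild type, and 4.67 and 4.65 in Scap-/-. Its Scap-/- and SREBP wild type arrays lay below the other 6, an order of pools unlike that of Irf7, in which Scap-/- was next to the highest.

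**Figure D3:**
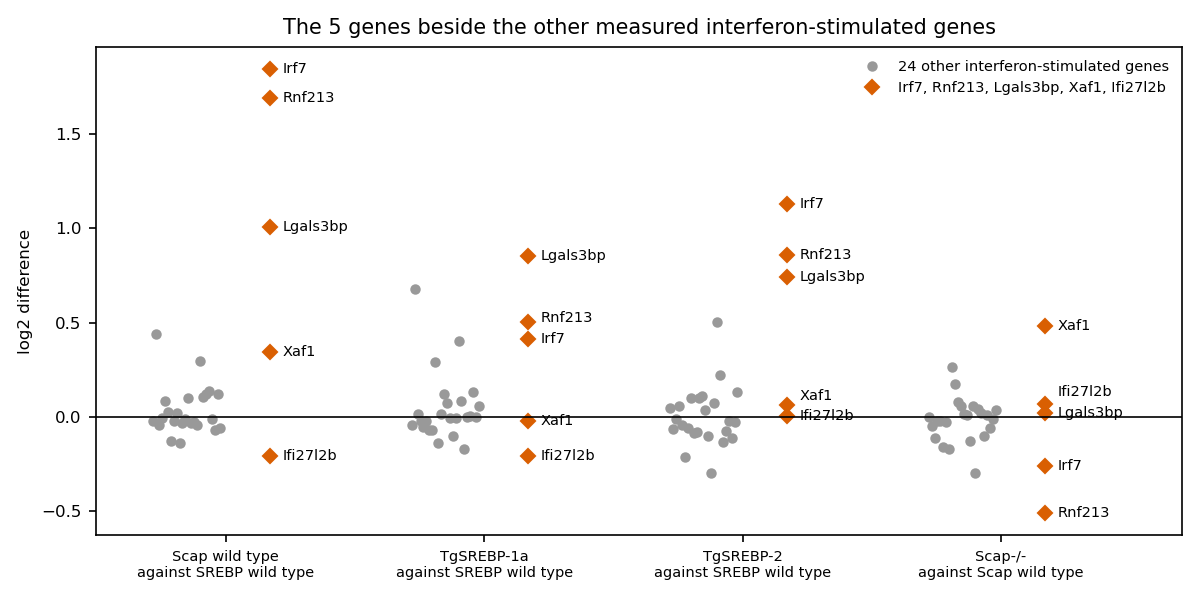
Log2 differences (vertical axis) in 4 comparisons of pools for the 24 other measured interferon-stimulated genes (grey circles) and for the 5 genes at their brightest probe set (orange diamonds). In Scap wild type against SREBP wild type the grey points lie between -0.14 and 0.44, below Irf7, Rnf213 and Lgals3bp. The 5 genes were chosen with their differences known, so nothing is read from the contrast.

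Upstream of these genes, 12 of 50 fixed genes of interferon sensing and signalling were measured, and none was called in any of the 4 comparisons by limma. Of all probe sets, 0.0927% were called in Scap wild type and 1.04% in TgSREBP-1a against SREBP wild type. In TgSREBP-2 it was 0.118%, and in Scap-/- against Scap wild type 0.0843%, so few calls are to be had among 12 genes. At an unadjusted p under 0.05 there were 2 each in Scap wild type and TgSREBP-1a against SREBP wild type, beside 7.26% and 9.4% of all probe sets. There were 0 in TgSREBP-2 and in Scap-/- against Scap wild type, beside 6.34% and 3.8%. The receptor subunit gene Ifnar1 differed by -0.03 in Scap wild type against SREBP wild type and by 0.05 in TgSREBP-1a. Jak1, a kinase of the receptor, differed by 0.54 (adjusted p = 0.659) and 0.74 (adjusted p = 0.216) in these comparisons, and Sting1, the adaptor of cytosolic DNA sensing, by 0.41 (adjusted p = 0.636) and 0.38 (adjusted p = 0.447). Jak1 lay between 3.71 and 4.76 and Sting1 between 4.34 and 5.26 on the 10 arrays. Of 31 genes of class I antigen presentation, another process that interferons raise, 5 were measured. In the 4 comparisons 1 of them was called, in TgSREBP-1a, against 1.04% of all probe sets there. The called gene was the histocompatibility gene H2-Q2, with 9.27 and 8.98 in TgSREBP-1a and 5.91 to 6.61 on the other 8 arrays. Its log2 difference from SREBP wild type was 3.16 (SE 0.148, limma adjusted p = 7.4e-07). With TgSREBP-1a among the uninjected pools, H2-Q2 was also called lower over all injected against all uninjected pools (-0.70, limma adjusted p = 0.00351), with overlapping arrays. Psmb8, an immunoproteasome subunit, and Tap2, a peptide transporter, differed by -0.11 and 0.07 in TgSREBP-1a against SREBP wild type. Tapbp and Canx, also on this list, differed by -0.14 and -0.06 there. The H2-Q2 probe set is, like that of Irf7, of the class (_f_at) whose probes may match more than 1 transcript. Which transcripts gave its signal was not tested.

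Immune cells of the liver express many interferon-stimulated genes, and fewer cells of a type cannot be told apart from less RNA per cell in such pools. Of the 23 macrophage and Kupffer cell markers 5 were measured, and 2 were called higher in TgSREBP-1a, Vsig4 (1.14, adjusted p = 0.0185), a complement receptor, and Laptm5 (1.05, adjusted p = 0.00538), a lysosomal membrane protein, by limma, against 1.04% of all probe sets. The other 3 markers, Lyz1 (0.15), C1qc (0.17) and Fcgr1 (-0.05), were not called there. The summed level of the 5, on the log2 scale, in which the bright Laptm5 (mean 9.10) and Vsig4 (7.83) weigh most, was 9.48 to 9.76 in SREBP wild type, 10.41 to 10.49 in TgSREBP-1a, 10.02 to 10.13 in TgSREBP-2, 9.90 to 10.01 in Scap wild type and 9.83 to 10.16 in Scap-/-. SREBP wild type was the lowest pool here as it was for Lgals3bp, Irf7 and Rnf213, but TgSREBP-1a was highest, above both Scap pools. Whether these cells had a part in the Lgals3bp, Irf7 or Rnf213 values was not tested. Fcgr1, on this list and on that of the interferon-stimulated genes, differed by 0.08 between the wild-type pools.

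The 3 measured lymphocyte markers, of 26, summed to 8.83 to 8.91 in Scap wild type and 8.75 in SREBP wild type, and none was called. Nkg7 (mean 8.55) weighs most in that sum. Cd3d, a subunit of the T cell receptor complex, was dimmer. All 4 injected arrays (4.34 to 4.61) lay above all 6 uninjected ones (3.68 to 4.28) for Cd3d. The same held for Irf7 and Xaf1 and for 1.32% of all probe sets. The Cd3d difference of 0.45 (limma adjusted p = 0.0148) lies under the 1.5-fold floor. Injected and uninjected arrays overlapped for Nkg7 (0.08) and Gzma (0.16). The part of Cd3d in the Irf7 and Xaf1 values was not tested. Egfl7, an endothelial marker, was lower on all injected arrays than on all uninjected ones (-0.51, limma adjusted p = 0.0147), also under the floor. The bile duct marker Cldn7 was lower on all injected arrays as well (-0.27, limma adjusted p = 0.116). Of the other bile duct markers, Epcam had a higher mean in the injected pools (0.46, limma adjusted p = 0.00223, under the floor), and Sox9 differed by -0.02. Arrays overlapped for Epcam and Sox9 and for the endothelial Clec4g (-0.16) and Kdr (-0.06). The share of all probe sets lower on every injected array than on every uninjected one was not computed. None of the 2 neutrophil and 3 endothelial markers measured was called in any of the 4 comparisons of single pools, where 0.0843% to 1.04% of all probe sets were. Of the 10 markers of plasmacytoid dendritic cells, the cells that release most interferon, none was measured. Of the 3 bile duct markers measured, Epcam was called lower in TgSREBP-1a (-0.63), against 1.04% of all probe sets. The 7 measured pancreatic acinar markers summed to 9.81 to 10.45 in SREBP wild type, 8.89 to 8.94 in Scap wild type, 7.31 to 7.36 in TgSREBP-1a, 10.73 to 11.05 in TgSREBP-2 and 7.22 to 7.35 in Scap-/-. The brightest, Cpa1 (mean 7.99), weighs most in these sums, and Amy2a5 differed by 0.26 in Scap wild type against SREBP wild type, where Cpa1 was called lower. Called acinar markers numbered 1 (lower) in Scap wild type against SREBP wild type, 3 (lower) in TgSREBP-1a, 2 (higher) in TgSREBP-2 and 2 (lower) in Scap-/- against Scap wild type, beside 0.0927%, 1.04%, 0.118% and 0.0843% of all probe sets. The part of acinar RNA in the values of the 5 genes was not tested.

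Among themselves the genes fell into a close pair and looser partners. Over the 10 arrays, which are 5 pools on 2 arrays each and share the steps of hybridisation, Irf7 and Rnf213 correlated at 0.94. Lgals3bp correlated at 0.79 with Irf7 and 0.83 with Rnf213, and Xaf1 at 0.71 with Irf7, 0.56 with Rnf213 and 0.51 with Lgals3bp. The brighter Ifi27l2b probe set was negatively related to all 4, from -0.62 with Lgals3bp to -0.23 with Xaf1. These values contain the differences that chose the genes.

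**Figure D4:**
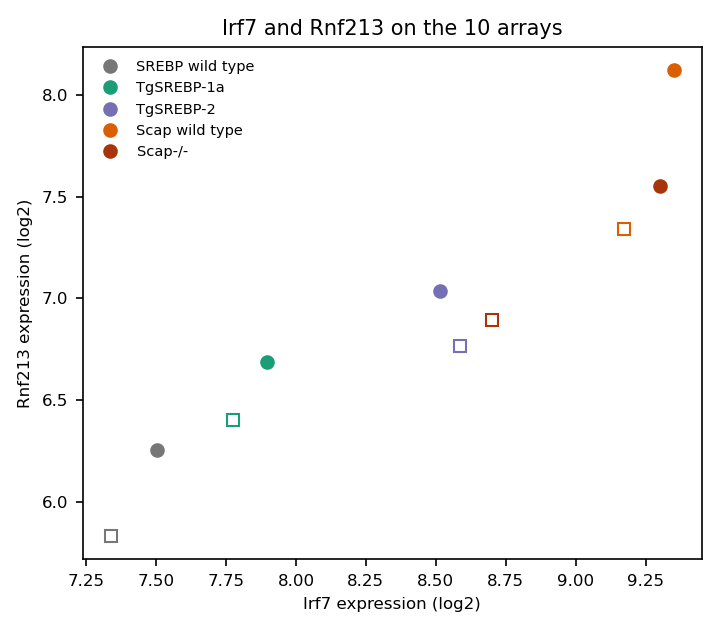
Log2 expression of Irf7 (horizontal axis) and Rnf213 (vertical axis) on the 10 arrays, coloured by group, with circles for replicate 1 and open squares for replicate 2. The points run from SREBP wild type at the lower left (7.34 and 5.83) to Scap wild type at the upper right (9.35 and 8.12).

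Set beside 319 genes whose pool means spanned at least 1.5-fold, Rnf213 was the gene most like Irf7. Both were chosen by differences between these same pools, so nothing is read from that rank. The correlations given here are the highest among the 319 genes and rest on 5 pools. After Rnf213, the genes most like Irf7 were Cd3d (correlation 0.84 over the 10 arrays) and Pik3cd (0.83). They differed between Scap wild type and SREBP wild type by 0.41 and 0.61. The pattern of Rnf213 was most like those of Pik3cd (0.95), Irf7 (0.94) and Lrrc8d (0.87). For Lgals3bp the closest were Colec12 (0.92), Son (0.89) and Spr (0.88), which exceeded SREBP wild type by 0.54 to 0.95 in both transgenic lines and in Scap wild type. For Xaf1 they were Dnaic1 (0.89), Esr1 (0.89) and Cpne2 (0.88), and for the brighter Ifi27l2b probe set Ung (0.94), Fgf21 (0.89) and Fdps (0.89).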

How the data were processed

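Per the submitters' processing notes, the deposited log2 values were made by the authors with RMA, a method that subtracts background, brings arrays to 1 distribution and fits each probe set; its version is not given, and the series' design text names Microarray Suite 5.0. The log2 scale was taken from the range of 2.17 to 13.3. Of 11934 probe sets, 66 controls were left out. The platform annotation names 1 gene for 7717, several for 150 and none for 4001, with symbols updated through 7677 Entrez identifiers found in RefSeq.

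One limma fit (limma 3.58.1, R 4.3.3; lmFit, eBayes) held the 10 arrays and 5 groups, with 5 residual and 6.26 prior degrees of freedom and a median standard error of 0.114; tests are two-sided. The brightest probe set stands for a gene in lists and medians. Named beyond the 5 genes were called genes of the pathway lists, the 3 largest differences among interferon-stimulated genes and the 3 most correlated genes per member, leaving out clone and predicted names. The 5 genes and all lists were chosen with earlier results of these data known. The procedure was tested on simulated data. Alternatives were other normalisations, filters, variance models, fold floors and array subsets.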

Additional observations from a re-analysis of the deposited data

How the results depend on the processing

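The number of arrays and pools limits all results, since 1 pool of 5 mice stands for each group and variation between mice is not measured. No reversal of a called difference occurred. Replicate numbers were not taken as pairs, since the deviations of same-numbered arrays correlated between groups at -0.17 to 0.33: 7 of 10 pairs of groups were over 0.1 and the others, all with TgSREBP-2, were negative, so not every array correlated best with its own number. With the replicate number as a block, 36 probe sets were called in Scap wild type against SREBP wild type (11 without it), 186 in TgSREBP-1a (123), 37 in TgSREBP-2 (14) and 19 in Scap-/- (10), and Lgals3bp was called in Scap wild type and TgSREBP-2, Rnf213 in TgSREBP-2 and Cxcl11, 1 of the 24 interferon-stimulated genes, in TgSREBP-1a (adjusted p = 0.0184). With plain _at probe sets alone, 5, 67, 4 and 4 were called in the same order, 1 of the interferon-stimulated genes in TgSREBP-1a, and the median of the 5 genes, without Irf7 and Lgals3bp, was 0.34 in Scap wild type, -0.0231 in TgSREBP-1a and 0.0625 in TgSREBP-2. Fewer genes enter there by construction. A 2-fold floor left 59 calls in TgSREBP-1a, and a fit of the Scap arrays alone left 4 in Scap-/-. The median in Scap wild type was 0.57 when all injected were set against all uninjected pools. Leaving out each array gave 3 to 10, 40 to 134, 7 to 17 and 3 to 11 calls, 0 to 1 of the interferon-stimulated genes in TgSREBP-1a, and medians of 0.73 to 1.28 in Scap wild type and 0.47 to 1.02 in TgSREBP-2. Counts moved over 1.5 times in Scap wild type without its replicate 1 (3), SREBP wild type replicate 2 (7) or either TgSREBP-2 array (7), in TgSREBP-1a without its replicate 1 (40) or 2 (57) or SREBP wild type replicate 2 (63), in TgSREBP-2 without its replicate 1 (7) or SREBP wild type replicate 2 (9), and in Scap-/- without its replicate 1 (6) or Scap wild type replicate 1 (3) or 2 (6). The causes were not tested. In the other 3 comparisons, 0 of the 24 interferon-stimulated genes were called under every alternative run.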
